A study of Mus musculus with 6 samples.

Results

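Cytosolic ribosomal protein genes were followed here in RNA-seq libraries of mouse liver sinusoidal endothelial cells (LSECs). Members were taken by symbol, as Rpl or Rps with a number and at most the suffix a, l or x, together with Rplp0, Rplp1, Rplp2 and Rpsa, and symbols of named pseudogenes were left out. This gave 83 of the 60832 genes in the table, of which 43 encode other proteins of the large subunit, 30 proteins of the small subunit and 3 the stalk of the large subunit, and 7 carry the symbol of a paralog or copy ending in l. The annotation calls 80 of them protein coding and Rps4l, Rpl6l and Rpl32l processed pseudogenes.

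The cells came from male BALB/c-Nu mice, 4 to 6 weeks old when obtained, with liver tumors of HCT116 cells, a line from a human colorectal cancer, injected into the left lobe. LSECs were separated from the digested tumor-bearing tissue with anti-CD146 beads, and the sample labels give 24 h of culture for all 6 libraries. The sensitive group comprised 3 libraries from bevacizumab-sensitive xenografts, whose vehicle arm received IgG by the study's methods, and the resistant group 3 libraries from xenografts made resistant with bevacizumab, an antibody against VEGF-A, at 10 mg/kg (42 days by the study's results text, 7 weeks by its methods). No source says whether a library is 1 mouse or a pool, so p-values measure the spread between these libraries, which may in part be technical.

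The ribosome joins a large and a small subunit, each built from ribosomal RNA and one copy of most of its proteins, and the stalk proteins P0, P1 and P2 recruit the factors that drive elongation. In mammals the mRNAs of these proteins begin with a run of pyrimidines, the 5′ terminal oligopyrimidine tract, through which mTOR signaling controls their translation. Nearly every one of these genes also has processed pseudogenes elsewhere in the genome, which are reverse-transcribed copies of the mature mRNA, and RNA-seq reads of gene and copy are hard to tell apart.

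The annotated starts of 6 members are shown with their longest pyrimidine run in capitals, since this run is what the family's mRNAs are known for. The sequences are from RefSeq on GRCm38.p6, each 30 bases long on the strand of the gene. The first 4 members have a run of 9 or 10 bases near the start, and the other 2 have runs of 3 and 4 bases.
Rpl38, chr11:114668568-114668597, plus strand: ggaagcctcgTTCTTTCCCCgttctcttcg
Rplp2, chr7:141447636-141447665, plus strand: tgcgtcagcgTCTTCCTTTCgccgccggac
Rps6, chr4:86857349-86857378, minus strand: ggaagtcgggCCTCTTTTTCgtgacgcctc
Rps27, chr3:90213632-90213661, minus strand: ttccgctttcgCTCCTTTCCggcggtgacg
Rpl41, chr10:128549156-128549185, minus strand: gacacacgggccggCTCggaagtgacgaca
Rps19, chr7:24884571-24884600, plus strand: gagcactccgaaaTCTCgcgagactcgacg

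Start sequences were given for 61 of the 83 members. A run of at least 8 pyrimidines, read on the gene's strand from 10 bases before to 30 bases after the first listed start, was found in 24 of the 61 (39.3%), against 14.3% of all 27025 genes with a start sequence. The letters CCGGAAG, the core recognized by ETS factors, were found on either strand of the 300 bases around the start in 24 of the 61 (39.3%), against 9.12% of all genes, and AAGATGG, a YY1 core, in 8 (13.1%), against 6.48%. The starts in the table may lie some bases from the start used in these cells.

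The libraries held between 17599326 and 20726684 counts on genes, so that 3 counts corresponded to between 0.145 and 0.170 CPM (counts scaled to the total of their library). This floor covers counting error only. The summed CPM of 18 macrophage and Kupffer cell markers was between 27839 and 42630 in the 6 libraries and that of 19 LSEC markers between 822 and 1675, with no marker of either list at 0 in every library. The label of the cells is thus used as a name only. In these bulk libraries a lower level can mean fewer cells of a type or less RNA per cell, which cannot be told apart.

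Ribosomal protein mRNAs took 2.49%, 5.24% and 2.27% of all counts in sensitive replicates 1, 2 and 3, and 2.47%, 2.48% and 2.63% in resistant replicates 1, 2 and 3. Sensitive replicate 2 stood alone at 2.11 times the median of the other 5 libraries, which lay between 2.27% and 2.63%. All 3 resistant libraries lay within the range of the sensitive group. The group means were 3.33% ± 1.65 (SD, n = 3) and 2.53% ± 0.0877 (SD, n = 3), a difference of -0.80 percentage points, resistant minus sensitive (two-sided exact permutation test, p = 0.80, where 3 against 3 libraries cannot go below 0.1). Without sensitive replicate 2 the difference was 0.15 percentage points in the other direction (exact permutation test, p = 0.60, with 0.2 the smallest p of 2 against 3).

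**Figure D1:**
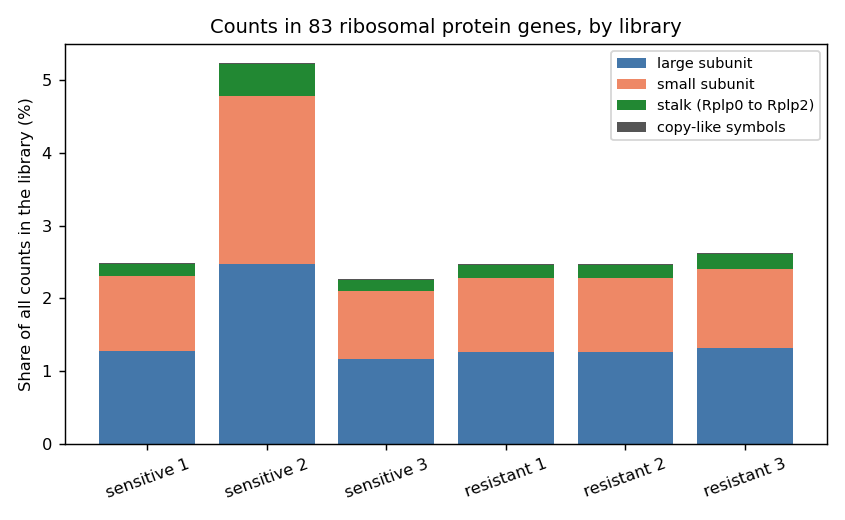
Share of all counts (%, y axis) that fell on the 83 members in each of the 6 libraries (x axis), stacked by part of the ribosome. Sensitive 2 reached 5.24%, and the other 5 libraries lay between 2.27% and 2.63%.

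Both subunits took part in this difference between libraries. Large subunit genes other than the stalk made up 2.47% of the counts of sensitive replicate 2 and between 1.17% and 1.32% in the other 5 libraries. Small subunit genes made up 2.31% there and between 0.934% and 1.08% elsewhere. The stalk genes made up 0.444% there and between 0.153% and 0.209% elsewhere. The genes of the mitochondrial ribosome, which is encoded by 78 separate nuclear genes in this table, moved less, with 0.385% in sensitive replicate 2 and between 0.234% and 0.271% elsewhere.

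The members spanned over 3 orders of magnitude per length. Levels between genes are compared on the deposited FPKM (fragments scaled by the length of the gene's summed exons and by the library total), as the mean over the 6 libraries. The median of the 76 members other than the copy symbols was 159.7 FPKM, and 49 of them lay between 100 and 500 FPKM. Rplp1, a stalk protein, had the highest FPKM of the members at 2133, and it was followed by Rps15 at 794, Rpl36 at 716, Rpl41, the smallest protein of the ribosome, at 615 and Rpl8 at 608. Rpsa, the laminin receptor homolog, was the second in the small subunit at 435 FPKM.

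A group of members lay far below the rest. In the large subunit Rpl29 had 0.658 FPKM and Rpl24 1.37 FPKM, and in the small subunit Rps10 had 1.79 FPKM and Rps18 16.2 FPKM, although the ribosome holds one copy of each of these proteins. Rpl13a, a member of the large subunit with a known role in silencing of inflammatory mRNAs in myeloid cells, had 7.50 FPKM. On this scale 6 of the 76 members had less than 10 FPKM. Dividing CPM by the length of the principal transcript instead gave an order close to this one (Spearman's rho of 0.89 across 81 genes, given as a description), and Rpl13a stood at 15.1 and Rpl24 at 2.09 CPM per kilobase.

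**Figure D2:**
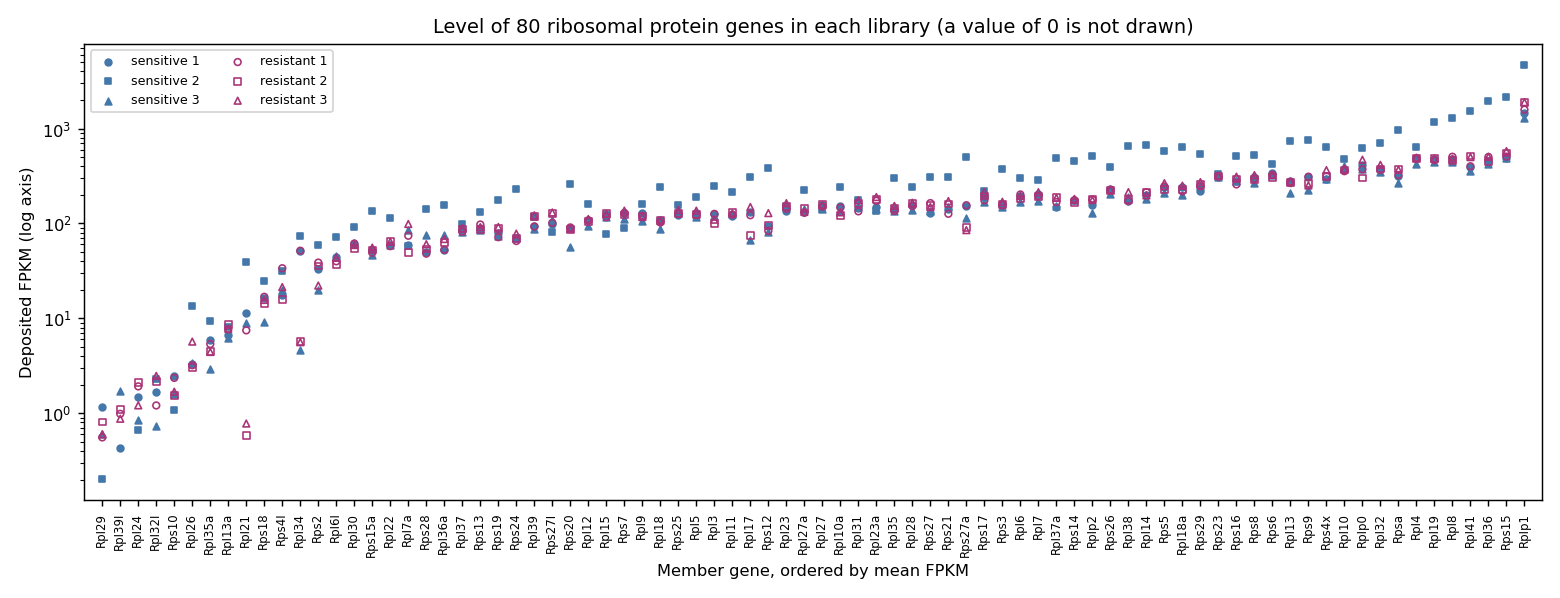
Deposited FPKM (y axis, log scale) of 80 members tested, ordered by mean FPKM (x axis), with 1 symbol per library, filled for the sensitive and open for the resistant group. The filled squares of sensitive 2 lie above the other libraries for most members, and a tail of members at the left lies below 10 FPKM.

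Between 5 of the 6 libraries the members varied less than most genes did. The ratio of the highest to the lowest CPM over the libraries other than sensitive replicate 2 had a median of 1.26 over the 81 members that passed the filter on low counts and of 1.59 over all 15474 genes that passed it. The ratio was below 1.2 in 30 of 81 members (37.0%) and in 10.5% of all genes tested. Among the 295 genes tested that had at least the members' median FPKM, members included, it was below 1.2 in 16.9%. The least variable was Rps23, a protein of the decoding center, with 392, 421 and 394 CPM in the sensitive and 394, 399.8 and 402 CPM in the resistant group.

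In sensitive replicate 2, 65 of 81 members (80.2%) had their highest CPM of all libraries, against 26.0% of all genes tested, and 9 had their lowest. The ratio of its CPM to the median of the other 5 libraries had a median of 1.80 over the members and of 0.793 over all genes tested. Among the 295 genes tested that had at least the members' median FPKM, members included, 47.8% were highest there, with a median ratio of 1.17. This library was singled out because of its values, it is 1 library, and no test of the difference is given. It also had the fewest total counts of the 6.

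The ratio in that library was uneven within the ribosome. The median ratio was 1.70 over the 43 large subunit genes, 2.06 over the 30 small subunit genes and 2.94 over the 3 stalk genes. Rplp1 had 727, 2345 and 646 CPM in the sensitive and 788, 935 and 945 CPM in the resistant group. Rpsa had 1005, 3044 and 836 CPM in the sensitive and 1024, 1188 and 1166 CPM in the resistant group. For both, sensitive replicate 2 was above every other library, and the other sensitive libraries were below every resistant library.

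Some members had smaller ratios or lay below the others in sensitive replicate 2. Rps6, the substrate of the S6 kinases, had 535, 663 and 512 CPM in the sensitive and 514, 479 and 515 CPM in the resistant group, a ratio of 1.29. Rps25, needed for initiation at some viral internal ribosome entry sites, had 328, 420.4 and 366 CPM against 338, 343 and 373 CPM, a ratio of 1.23. Of the members with the lowest CPM in that library, which were looked up after their values were seen, Rpl15 had 308, 190.4 and 290.0 CPM in the sensitive and 288, 318 and 312 CPM in the resistant group. Rps7 had 258, 179.6 and 224 CPM against 260.0, 247 and 275 CPM. The 3 highest ratios belonged to Rpl34 (12.8), Rpl21 (5.21) and Rps27a (4.41), and the 3 lowest to Rpl39l (0), Rpl29 (0.334) and Rpl24 (0.446). With the copies added, the ratios were 1.35 for Rpl34, 3.55 for Rpl21, 4.54 for Rps27a, 0.859 for Rpl29 and 1.57 for Rpl24.

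**Figure D3:**
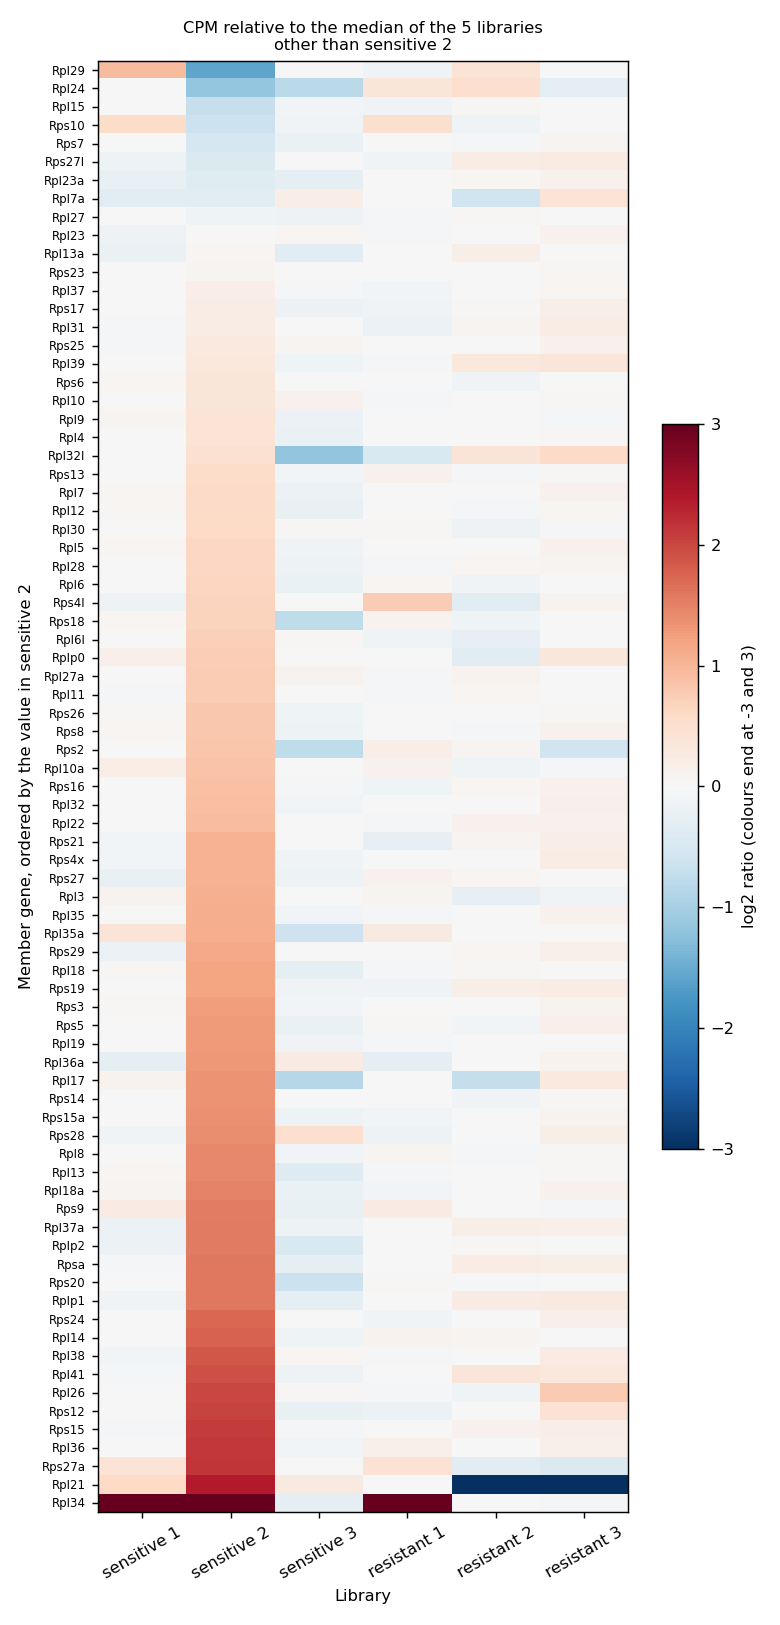
Log2 ratio of each library's CPM (columns) to the median CPM of the 5 libraries other than sensitive 2 for 79 members (rows), ordered by the value in sensitive 2. Rpl39l, with 0 counts in that library, is not drawn. The column of sensitive 2 runs from blue for a few members to red for most, and Rpl34 and Rpl21 differ between the other libraries too.

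Short and GC-rich transcripts as a whole stood higher in sensitive replicate 2. Over all genes tested with a principal transcript below 500 bases the median ratio was 1.44, and above 4000 bases it was 0.541. The median principal transcript was 835 bases for members and 2705 bases for all genes tested. Among the 1431 genes tested with a transcript below 1000 bases and a GC content of at least 46%, the median ratio was 1.498, with 54.4% highest in that library, and for the 52 members among them it was 2.05, with 41 highest. Across the members the ratio followed GC content weakly (Spearman's rho of 0.27, n = 80 genes of the same libraries, and 0.27 over 14016 genes tested). With transcript length the rho was -0.10 across the members and -0.42 across those genes. The summed CPM of 16 neutrophil markers was 8195 in sensitive replicate 2, with 12 of the 16 highest there, and 6526 in sensitive replicate 1, where the members took 2.49% of counts, and between 414 and 2574 in the other 4. The summed CPM of 10 pancreatic acinar markers was 117 there and between 9.05 and 49.3 elsewhere. The summed CPM of 8 genes taken as signs of RNA quality was 54199 there and between 29729 and 42488 elsewhere, with 4 of the 8 highest and 1, the nuclear RNA Malat1, lowest in that library. The part of length, GC content, RNA of other cells and RNA quality in the level of the members was not tested.

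Between the groups no member passed the threshold. With edgeR's quasi-likelihood test 0 of 81 members passed 0.05 after Benjamini-Hochberg adjustment, where 0% of the 15474 genes tested did, and 1 of 81 had an unadjusted p-value under 0.05, where 3.08% of all genes tested did. DESeq2 gave 2 members at an unadjusted p under 0.05 and 0 at an adjusted p under 0.05. Its counts over all genes are given below with the other alternatives. The median log2 fold change, resistant against sensitive, was -0.40 over the members and 0.01 over all genes tested, with 68 members lower and 13 higher. The smallest adjusted p of any member was 0.940.

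Markers of several cell types, endothelial cells included, also leaned to one group or the other, and 0 of them passed the adjusted edgeR threshold. Of 16 neutrophil markers 16 were lower in the resistant group and of 16 general endothelial markers 15, with 2 and 6 at an unadjusted p under 0.05. Of 11 hepatocyte markers tested 11 were higher, with 2 under 0.05, and their summed CPM was between 38.1 and 99.8 in the sensitive and between 79.2 and 236 in the resistant group. Of the markers tested, 7 of 9 for stellate cells and fibroblasts and 3 of 5 for epithelium were higher, with 1 and 0 under 0.05. Lower were 11 of 18 for macrophages, 12 of 18 for LSECs, 6 of 6 for acinar cells, 2 of 2 for erythroid cells, 1 of 1 for T and NK cells and 1 of 1 for B and plasma cells, with 1, 1, 1, 2, 0 and 0 under 0.05. The part of these cells in the level of the members was not tested.

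Without sensitive replicate 2 the direction turned for most members. In that fit 64 of 82 members were higher and 18 lower in the resistant group, with a median log2 fold change of 0.08, while over all genes 49.4% were higher. Of the 82 members, 2 had an unadjusted edgeR p under 0.05, Rpl23a and Rplp2, against 3.96% of all genes in that fit, and 0 an adjusted p under 0.05. Of the 32 members tested that the rule for named genes picked, 17 had a negative value with all libraries and a positive one without this library.

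**Figure D4:**
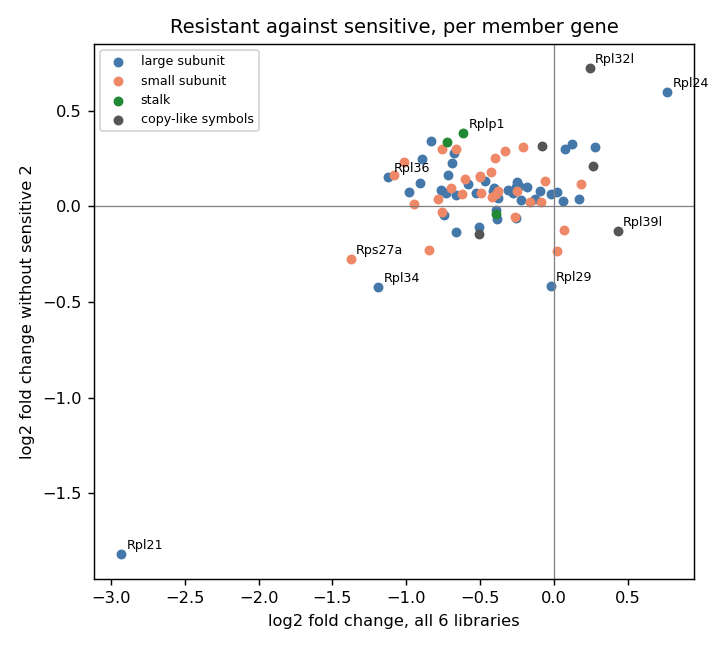
Log2 fold change, resistant against sensitive, of each of the 81 members with all 6 libraries (x axis) and without sensitive 2 (y axis). Most members lie left of 0 on the x axis and above 0 on the y axis, with medians of -0.40 and 0.08, and Rpl21 lies at -2.93 and -1.82.

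For 3 of 81 members the CPM values of one group lay wholly outside those of the other, against 8.39% of all genes tested. Rpl21, of the large subunit, was the member at an unadjusted p under 0.05. It had 38.7, 133 and 30.5 CPM in the sensitive and 25.4, 1.97 and 2.65 CPM in the resistant group, a log2 fold change of -2.93 ± 1.11 (SE; edgeR adjusted p = 0.940). Resistant replicate 1 lay close to the sensitive group and the other 2 resistant libraries far below it. Rpl23a, which lines the exit of the peptide tunnel, had 127, 115 and 121 CPM in the sensitive and 147, 152 and 161 CPM in the resistant group, a log2 fold change of 0.28 ± 0.18 (edgeR adjusted p = 0.940). The third, Rpl6l, an annotated pseudogene, had 38.2, 62.1 and 39.2 CPM against 34.8, 32.2 and 38.0 CPM. When each member was summed with its pseudogene copies, 6 of 81 members did not overlap, near the 8.39% of all genes tested without summing. These were Rpl17, Rpl21, Rpl30, Rpl34, Rpl6l and Rps27. With its copies Rpl23a, at 163, 146 and 174 CPM against 171, 181 and 187 CPM, did overlap.

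The other members at the ends of the order of fold changes were as follows. Rps27a, which is made as a fusion with ubiquitin, had 299, 996 and 226 CPM in the sensitive and 307, 178 and 168 CPM in the resistant group, a log2 fold change of -1.38 ± 0.64 (edgeR adjusted p = 0.940). Rpl36 had 172, 754 and 162 CPM against 192, 171 and 193 CPM, and its log2 fold change of -1.12 was 0.15 without sensitive replicate 2. Rpl24, at the bridge between the subunits, had the highest value, 0.77 ± 0.52, on no more than 43 counts in any library. Each of these pairs of groups overlapped.

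Members with roles outside translation or in disease did not pass the test either. Rpl5 and Rpl11, which bind MDM2 together with 5S ribosomal RNA and so stabilize p53, had log2 fold changes of -0.28 ± 0.29 and -0.38 ± 0.32. Rpl11 had 327, 578 and 339 CPM in the sensitive and 334, 351 and 343 CPM in the resistant group. Rps19, the gene most often mutated in Diamond-Blackfan anemia, had 368, 836 and 341 CPM against 336, 417 and 430.0 CPM. Rps3, which also works in DNA repair and with NF-kappaB, had 716, 1682 and 664 CPM against 697, 705 and 758 CPM. Rpl38, whose loss alters translation of Hox mRNAs in the mouse, had 92.3, 355 and 102 CPM against 93.3, 97.5 and 116 CPM. In these genes the sensitive libraries other than replicate 2 lay within or close to the resistant range.

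Rpl3, Rpl10, Rpl41, Rps15, Rplp2 and Rplp0 each had their highest CPM in sensitive replicate 2. Rpl3, next to the peptidyl transferase center, had 403, 783 and 376 CPM in the sensitive and 400.1, 318 and 348 CPM in the resistant group, a log2 fold change of -0.67 ± 0.37. Rpl10, which joins the large subunit late, had 743, 973 and 825 CPM against 729, 752 and 773 CPM. Rpl41 had 456, 1787 and 419 CPM against 467, 599.5 and 584 CPM. Rps15 had 307, 1356 and 309 CPM against 319, 348 and 364 CPM. Rplp2 had 323, 1072 and 266 CPM against 369, 375 and 365 CPM, and among the other 2 sensitive libraries both were below all resistant ones. Rplp0 had 684, 1025 and 616 CPM against 617, 499 and 778 CPM.

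The paralogs Rpl10l, Rpl3l and Rpl39l were near or at 0. Rpl10l, the testis retrogene that stands in for Rpl10, had 0 counts in all 6 libraries, which allows up to 0.170 CPM in the shallowest. Rpl3l, the paralog of heart and skeletal muscle, had between 0 and 32 counts and was not tested. Rpl39l, a paralog of Rpl39 in male germ cells, had 7, 0 and 29 counts in the sensitive and 17, 18 and 14 in the resistant group, while Rpl39 had 136, 169 and 125 CPM against 133, 171 and 175 CPM. Rps4l had between 15.02 and 31.8 CPM, while Rps4x, the X-linked gene, had 481, 1053 and 477 CPM against 513, 512 and 595 CPM.

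Rps27l, a p53-responsive paralog of Rps27, had 80.1, 66.1 and 89.5 CPM in the sensitive and 82.8, 105 and 106 CPM in the resistant group, a log2 fold change of 0.26 ± 0.21 (edgeR adjusted p = 0.940). Rps27 had 134, 319.7 and 139.9 CPM against 171, 163 and 155 CPM, and with its copies 210.5, 354 and 298 CPM against 188, 185 and 197 CPM. In sensitive replicate 2, Rps27l had its lowest and Rps27 its highest CPM. Rpl22, which has a paralog outside the symbol rule, had 172, 329 and 171 CPM against 168, 188 and 187 CPM.

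Most members share sequence with other genes. Of the 83 members, 73 shared at least one stretch of 100 bases with an exon of another annotated gene, and 454 annotated pseudogene or retrocopy genes were assigned to 71 members by the largest number of shared stretches. The copies together took between 0.333% and 0.388% of counts in 5 libraries and 0.565% in sensitive replicate 2. In 8 members, Rpl17, Rpl24, Rpl26, Rpl29, Rpl34, Rpl35a, Rps10 and Rps2, the copies held more counts than the gene over the 6 libraries together. For Rpl17 and Rpl34 this was so in 4 of the 6 libraries, and for the other 6 members in every library. How reads matching several genes were counted is not given in the sources used here.

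For 3 members a stretch of 30 coding bases is shown with the same stretch of a copy and with differing bases in capitals. These 3 are among the members whose copies held more counts than the gene over the 6 libraries together. Sequences are from GENCODE M21 on GRCm38, and positions count from 1 at the 5′ end of the stretch.
Rpl34, chr3:130726831-130730398, minus strand: gaaagcacctaaatcTgcatgtggcgtgtg
Rpl34-ps1, chr6:71124610-71124963, plus strand: gaaagcacctaaatcCgcatgtggcgtgtg
Rpl26, chr11:68901583-68906989, plus strand: agttcaggttgttcgCggacactacaaagg
Gm15772, chr5:3236431-3236868, plus strand: agttcaggttgttcgTggacactacaaagg
Rps10, chr17:27630418-27636669, minus strand: aggagcgcTgtgccccctggagcTgacaag
Rps10-ps2, chr16:20822145-20822640, minus strand: aggagcgcCgtgccccctggagcCgacaag

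The coordinates are those of the whole gene or copy. In the order member then copy, the differences are T16C for Rpl34, C16T for Rpl26, and T9C and T24C for Rps10. Over the whole coding sequence the copy differed from Rpl34 at 2 of 354 bases, from Rpl26 at 2 of 438 and from Rps10 at 5 of 496 compared.

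Rpl34 and its copy took opposite levels in the same libraries. Rpl34 had 136, 193 and 12.2 CPM in the sensitive and 136, 15.1 and 14.8 CPM in the resistant group. Rpl34-ps1 had 140.0, 179.5 and 267 CPM against 122, 253 and 262 CPM. The 3 libraries with the low level of Rpl34 were the 3 with the high level of the copy, and they came from both groups. Among the libraries other than sensitive replicate 2 the highest CPM of Rpl34 was 11.2 times the lowest, and after summing with its copies it was 1.08 times. The log2 fold change of Rpl34, -1.19 ± 1.15 (edgeR adjusted p = 0.940), is thus taken over libraries of both levels in each group.

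The pair of Rpl17, chosen after its values were seen, differed in the same way to a smaller extent. Rpl17 had 175, 410.5 and 89.4 CPM in the sensitive and 162, 99.4 and 198 CPM in the resistant group, and its copy Rpl17-ps10 had 107, 149 and 219.7 CPM against 146, 155 and 79.4 CPM. The ratio of the highest to the lowest CPM over the 5 libraries was 2.21 for the gene and 1.15 with its copies. For Rplp0, whose pair was also chosen after its values were seen, this ratio was 1.56 and 1.249. Its copy Gm8730 had 292, 597 and 235 CPM in the sensitive and 266, 495 and 331 CPM in the resistant group. Rplp0 and this copy were both highest in sensitive replicate 2. In resistant replicate 2 Rplp0 was at its lowest, and the copy was above its level in the other resistant libraries. For Rpl21, with 39 copies, the ratio was 19.6 and 3.62, and here gene and copies did not take opposite levels. Both were lowest in resistant replicates 2 and 3, with 39 and 51 counts on Rpl21 and 317 and 316 on its copies.

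In a further set nearly all counts lay on the copy in every library. Rpl26 had between 4.40 and 19.3 CPM, and Gm15772 between 341 and 602 CPM. Rps10 had between 2.50 and 5.75 CPM, and Rps10-ps2 between 95.1 and 219 CPM. Rps2 had between 36.0 and 109 CPM, and Rps2-ps10 between 352 and 457 CPM. The copies of Rpl29 held 97.5% of the counts of gene and copies, but the sum of both was only between 26.9 and 31.8 CPM. For Rpl24 the sum was between 4.18 and 16.1 CPM, and for Rpl26 between 349 and 625 CPM. Of the other low members, 47.0% of the exon bases of Rpl24 and 35.4% of those of Rpl13a are also exon of an overlapping gene. Such overlap was not limited to low members. It was found in 37 of the 83 members, and it was 62.3% for Rpl23a, at 162 FPKM, and 0% for Rpl29. The part of read assignment in these levels was not tested.

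**Figure D5:**
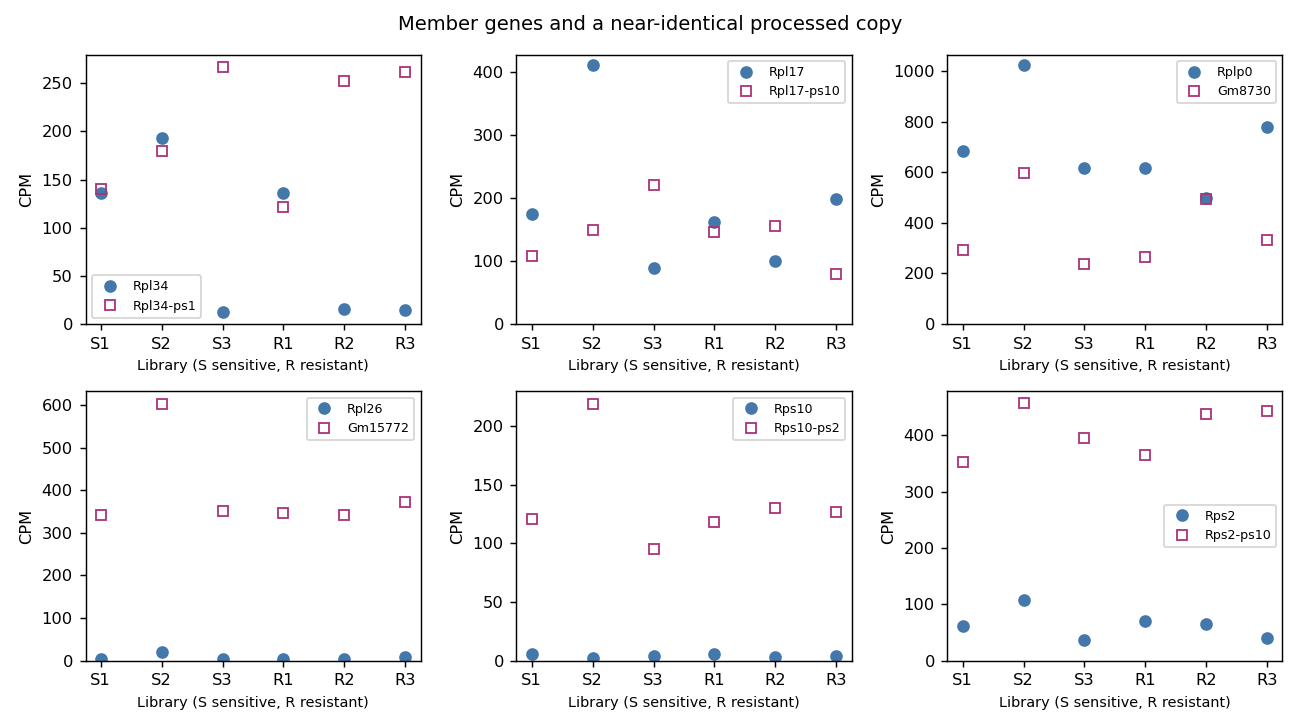
CPM (y axis, from 0) of 6 members (filled circles) and 1 copy each (open squares) in the 6 libraries (x axis). Rpl34 is low in the 3 libraries where its copy is highest, which belong to both groups, and the copies of Rpl26, Rps10 and Rps2 lie above the gene in every library.

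Genes of the ribosome that the symbol rule leaves out were also mostly highest in sensitive replicate 2. Of 7 such genes, 0 had an adjusted p under 0.05. In sensitive replicate 2, 5 of the 7 were highest and 1 was lowest, with a median ratio of 1.27, against 1.80 over the members. Fau, a ubiquitin-like fusion that yields a small subunit protein, had 425, 1658 and 378 CPM in the sensitive and 428, 467 and 410.4 CPM in the resistant group. Rack1, a scaffold on the small subunit, had 811, 1070.2 and 721 CPM against 874, 844 and 892 CPM. The mitochondrial ribosome had 77 genes tested, of which 0 passed the adjusted threshold and 53 were highest in sensitive replicate 2, with a median ratio of 1.40.

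Other parts of the translation machinery had median ratios somewhat closer to 1 in sensitive replicate 2. Of 11 elongation and release factors, 4 were highest and 4 lowest there, with a median ratio of 1.13. Eef1a1, which delivers aminoacyl-tRNA and whose mRNA carries the same 5′ tract, had 5880.2, 4482 and 6107 CPM in the sensitive and 5973, 5825 and 6849 CPM in the resistant group, and so had its lowest value there. Eef1b2 and Eef1d, subunits of its exchange factor, had ratios of 2.24 and 3.43. Of 31 initiation factors 16 were highest in that library and 12 lowest, with a median ratio of 1.15. Of 17 other genes with such a tract 9 were highest, with a median ratio of 1.14. Some of these lists share genes, so they are not separate observations.

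Between the groups these lists had no member past the adjusted threshold or at an unadjusted edgeR p under 0.05. Their median log2 fold changes were -0.03 for elongation factors, -0.08 for initiation factors, -0.08 for the other genes with a tract, -0.40 for 9 host genes of small nucleolar RNAs, -0.05 for 32 ribosome assembly factors, -0.13 for 11 factors of ribosomal RNA transcription, 0.10 for 15 genes of mTOR control and 0.40 for 10 p53 targets. The value over all genes tested was 0.01. Among the p53 targets 7 of 10 were higher in the resistant group, and 6 had their lowest CPM in sensitive replicate 2.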

How the data were processed

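The authors aligned paired-end reads with HISAT2 2.0.5, counted them on genes with featureCounts 1.5.0-p3 and deposited raw counts and FPKM values (count divided by library total and by 1 length per gene). By the methods, poly(A) RNA was selected, and the libraries were also made from RNA depleted of ribosomal RNA. The submitters' processing notes name mm9. The lengths implied by the deposited FPKM values equal the summed exons of GENCODE M21 (GRCm38) within 0.5 base for 98.1% of 28068 genes, and coordinates are from that annotation by Ensembl identifier. A deposited table of the authors' own comparison (fold changes and p-values) was not used.

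Groups and replicates came from the sample titles. The counts were filtered with filterByExpr, normalized by TMM and tested two-sided with edgeR 4.0.16 (R 4.3.3, quasi-likelihood, robust) over all genes, with Benjamini-Hochberg adjustment and a threshold of 0.05. Shares were compared with an exact permutation test over libraries. Fits were tested on simulated data. Alternatives were RLE size factors, library totals, DESeq2 1.42.0, limma-voom (limma 3.58.1), other filters, the replicate number as a block, each library left out and, added after the data were seen, members summed with copies. The chi-square per gene between libraries of a group was at least 37.8, so none was a duplicate.

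The members and lists were chosen with earlier results of these data known. Named members were a written list, the 2 highest and 2 lowest in FPKM of each subunit, the 4 highest and 4 lowest in fold change and the 3 highest and 3 lowest in the ratio of sensitive replicate 2 to the other libraries. Rpl6l, Rpl8, Rpl15, Rpl17, Rpl26, Rpl30, Rpl35a, Rps2, Rps7, Rps23 and all copies were picked with their values in view. A member withheld here is not reported by name.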

Additional observations from a re-analysis of the deposited data

How the results depend on the processing

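No member had an adjusted p under 0.05 under any alternative run. Over all genes DESeq2 gave 24 genes with an adjusted p under 0.05 and 732 with an unadjusted one, and leaving out the filter gave 2 and 2036, against 0 and 476. DESeq2 and the sums with copies (added after the data were seen) each gave 2 members with an unadjusted p under 0.05, against 1. Leaving out 1 library at a time moved this count between 0 and 5. It was 5, 2 and 4 without sensitive replicates 1, 2 and 3, 2 without resistant replicate 1, and 0 without resistant replicates 2 or 3. The count over all genes moved between 167 and 1056, the ends without resistant and sensitive replicate 3. It was 245 without resistant replicate 2 and 632 (3.96%) without sensitive replicate 2. For the fits without sensitive or resistant replicate 1 and with summed copies it is not given here. The member counts of those fits are thus not set against a share over all genes. The median log2 fold change of the members ranged from -0.60 to 0.079 and the difference in summed share from -1.34 to 0.15 percentage points, in both cases positive only without sensitive replicate 2. The other scalings and filters kept the median between -0.45 and -0.29.

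Same-numbered libraries were not treated as pairs. The correlations of their deviations from the group mean over all genes were -0.00093, 0.034 and 0.194 for replicates 1, 2 and 3. With 3 libraries per group these values do not settle whether libraries were handled in pairs. With the replicate block 0 members passed the adjusted threshold, 1 the unadjusted one, 467 genes the unadjusted one, and the median was -0.29.

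Of 32 named members 11 kept their direction in every fit with a library left out. The ranges of the others were -0.57 to 0.042 for Rpl11, -0.62 to 0.080 for Rpl22, -0.42 to 0.60 for Rpl29, -1.49 to 0.15 for Rpl36, -1.33 to 0.073 for Rpl38, -0.024 to 0.30 for Rpl39, -0.13 to 2.15 for Rpl39l, -1.18 to 0.34 for Rpl41, -0.43 to 0.068 for Rpl5, -0.93 to 0.38 for Rplp1, -1.06 to 0.33 for Rplp2, -0.13 to 0.36 for Rps10, -1.45 to 0.16 for Rps15, -0.51 to 0.31 for Rps18, -0.74 to 0.16 for Rps19, -0.29 to 0.020 for Rps25, -0.66 to 0.25 for Rps27, -0.87 to 0.065 for Rps3, -0.37 to 0.32 for Rps4l, -0.66 to 0.18 for Rps4x and -0.99 to 0.30 for Rpsa. Rpl29 turned to 0.11 with limma-voom, 0.020 without the filter, 0.15 with the replicate block and 0.021 with its copies. Rps4l turned to 0.034 with library totals and 0.026 without the filter, and Rps10 to -0.34 with its copies. The causes were not tested. Low depth limits Rpl24, Rpl29, Rpl32l and Rpl39l, which had at most 43 counts in any library.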
